A study of Mus musculus with 9 samples.

Results

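The response to mitochondrial DNA (mtDNA) was measured by RNA sequencing in plasmacytoid dendritic cells (pDCs), which were isolated from mice by cell sorting, with cells given phosphate-buffered saline (PBS) as the vehicle control. The comparison took the 3 libraries titled mtDNA and the 3 titled PBS, 6 of the 9 libraries of the series, and each mtDNA library was set against the PBS library of the same replicate number. The other 3 libraries were of cells given oxidized mtDNA (Ox-mtDNA). The labels give no mouse strain, dose or treatment time and do not say whether replicates were separate cultures or animals. The p-values therefore measure only the spread between these samples, which may in part be technical. The cells of replicate 3 differed in sex from those of the other replicates, by the levels given below.

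pDCs are dendritic cells specialised in making type I interferon. DNA taken up into endosomes can bind Toll-like receptor 9 (TLR9), which signals through the adaptor MyD88 to IRF7, the transcription factor behind interferon genes, and to NF-kB, which drives cytokine and maturation genes. DNA in the cytosol can be sensed by cGAS and STING, which also lead to interferon. Secreted interferon then turns on interferon-stimulated genes through its receptor.

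Total counts were 18989748 to 25378884 per library in PBS and 17814132 to 18338436 after mtDNA, over 57126 genes of which 16239 were tested. Siglech, the sialic acid-binding lectin used to identify murine pDCs, was at 1724, 2282 and 2482 CPM (counts of a gene scaled by the size of its library) in PBS replicates 1, 2 and 3 and at 1781, 2220 and 2070 CPM after mtDNA. Bst2 (780 to 1531 CPM) and Tcf4 (590 to 1058 CPM), 2 more genes of pDC identity, were abundant in all 6 libraries as well. Replicate 3 stood apart in both groups. The first principal component held 83.7% of the variance and separated its libraries from the other 4, and Xist, which coats the silenced X chromosome in female cells, reached 832 and 2160 CPM there against 0 to 0.558 CPM elsewhere. Y chromosome genes summed to 262 to 291 CPM in replicates 1 and 2 and to 1.2 and 3.53 CPM in replicate 3. Replicates 1 and 2 thus had the pattern of male cells and replicate 3 that of female cells. Sex, a batch or another source of cells that differs between replicates cannot be told apart from the replicate number.

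Genes of dendritic cell maturation, inflammatory cytokine genes and NF-kB target genes had a positive median difference after mtDNA in each replicate, and B cell genes a negative one. Most interferon-stimulated genes were higher in replicates 1 and 2, and their median difference in replicate 3 was negative. Over all 3 replicates no gene passed an adjusted p of 0.05 in the quasi-likelihood test of edgeR with the replicate number as a block, 0 of 16239 or 0% of the genes tested, and the smallest adjusted p was 0.469. At an unadjusted p under 0.05 there were 886 genes higher (5.46%) and 454 lower (2.8%), 1340 in all where 5% of the tested genes is 812, and DESeq2 called 135 higher and 22 lower at an adjusted p under 0.05. A gene was above 0 in all 3 replicate differences in 3618 cases (22.3%) and below 0 in 2870 (17.7%). At least 2-fold higher in every replicate were 159 genes (0.979%), and at least 2-fold lower in every replicate were 10 genes (0.0616%). All 3 mtDNA libraries lay above all 3 PBS libraries for 908 of the 16239 genes and below them for 695. These counts are the background wherever groups are said not to overlap. A positive fold change was found for 9067 of the 16239 genes and a negative one for 7157. The genes and lists below are therefore described by their values in each library, and none of their differences over the 3 replicates passed the adjusted edgeR test. In DESeq2 with the same libraries and block, 43 of the 86 named genes recomputed passed an adjusted p of 0.05, so this depends on the tool.

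The response was more alike between replicates 1 and 2 than between either and replicate 3. Over the tested genes, the log2 CPM differences between mtDNA and PBS correlated at 0.531 between replicates 1 and 2, 0.225 between 1 and 3 and 0.243 between 2 and 3, a description across genes, which are not independent replicates. In replicate 3, 26.3% of genes differed at least 2-fold, against 5.35% in replicate 1 and 6.76% in replicate 2. A fit that left out replicate 3, with the block and 1 residual degree of freedom, called 1294 of 16401 genes higher (7.89%) and 1180 lower (7.19%) at an edgeR adjusted p under 0.05, and the fits without replicate 1 or 2 called 0. Those calls rest on the pairing of 2 replicates: without the block the same 4 libraries gave 1 higher and 0 lower, DESeq2 gave 493 and 337, and upper quartile normalization moved the split to 1596 higher and 882 lower. Replicate 3, which that fit did not use, was above 0 for 859 of the 1252 genes called higher that had a value there (68.6%, against 57.7% of all tested genes), and at least 2-fold higher for 444 (35.5%, against 17.5%). It was at least 2-fold lower for 126 of these 1252 genes (10.1%, against 8.84% of all tested genes). Of the 1175 called lower with a value there, 656 were below 0 in replicate 3 (55.8%, against 42.3%). Genes of more than 60% GC had a median difference of 0.33 in replicate 3, against -0.03 and -0.05 in replicates 1 and 2, and genes of 40 to 50% GC 0, 0.01 and 0.02, and the part of GC content in the results was not tested. The scatter of replicate 3 against replicates 1 and 2 shows genes such as Cxcl10 and Il1b high on both axes and Isg15 and Oas3 high on one only.

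**Figure D1:**
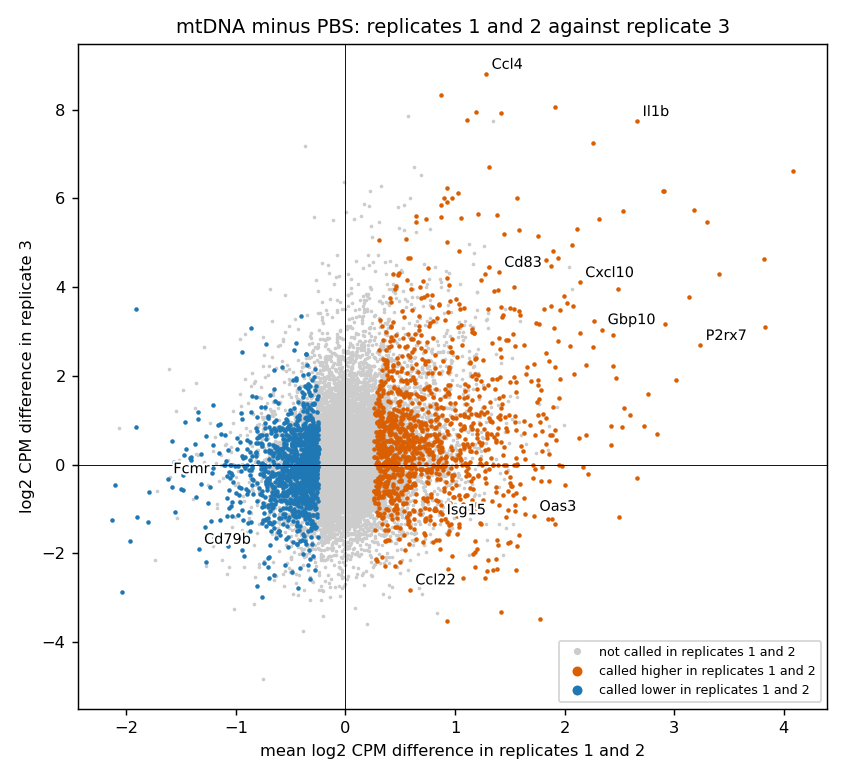
Log2 CPM difference between mtDNA and PBS in replicate 3 (vertical axis) against the mean difference in replicates 1 and 2 (horizontal axis), 1 point per tested gene, with genes called in replicates 1 and 2 in orange (higher) and blue (lower). The named genes include Ccl4, at 8.80 in replicate 3, and Ccl22, at -2.82 in replicate 3, both called higher in replicates 1 and 2.

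Genes of costimulation and maturation, which dendritic cells use to reach and activate T cells, had mostly positive fold changes. Of 28 tested members 22 had a positive fold change, where 9067 of all 16239 tested genes did, 17 were higher in every replicate and 2 lower in every replicate, and the list's median log2 fold change was 0.75 against 0.05 for all tested genes. At an unadjusted p under 0.05, 14 were higher and 0 lower, against 5.46% and 2.8% of all genes. In every replicate, 22.3% of all genes were higher and 17.7% lower, and replicates 1 and 2 called 7.89% higher and 7.19% lower. The median difference was 0.64, 0.68 and 0.90 in replicates 1, 2 and 3, and replicates 1 and 2 alone called 19 higher and 1 lower, Cd24a, a surface glycoprotein named here after its values were seen.

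Cd86, a ligand of the T cell receptor CD28, was at 15.1, 17.4 and 14.6 CPM in PBS and at 34.8, 47.5 and 29.1 CPM after mtDNA. All 3 mtDNA libraries lay above all 3 PBS libraries, with a log2 fold change of 1.22 (SE 0.18, unadjusted p = 0.0011, edgeR adjusted p = 0.593). Cd86 lies on chromosome 16 from 36424231 to 36486439 (GRCm39). Ccr7, the chemokine receptor that guides maturing dendritic cells to lymph nodes (chromosome 11, 99035022 to 99045903, GRCm39), was at 35.2, 26.0 and 34.0 CPM in PBS and 69.6, 73.3 and 77.6 CPM after mtDNA. Its groups did not overlap either, and its replicate differences of 0.98, 1.5 and 1.19 were close to each other. Cd80, the other CD28 ligand, was at 4.16, 4.27 and 3.63 CPM in PBS and 9.2, 12.7 and 14.05 CPM after mtDNA (log2 fold change 1.56, SE 0.25). Tnfsf4, the ligand OX40L, went from 4.30, 0.990 and 0.618 CPM in PBS to 12.9, 6.53 and 2.86 CPM, higher within every replicate, with groups that overlapped because PBS replicate 1 exceeded mtDNA replicate 3. Icosl, the ligand of ICOS on T cells, showed a smaller difference without overlap, 39.3 to 55.7 CPM in PBS and 66.7 to 74.7 CPM after mtDNA (log2 fold change 0.59, SE 0.15).

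Other members differed between replicates in size or in sign. Cd83, a surface protein of mature dendritic cells, was at 34.8, 26.6 and 23.4 CPM in PBS and 70.6, 91.6 and 474.6 CPM after mtDNA, so the groups did not overlap and replicate 3 was by far the highest. Cd40, the receptor for the T cell signal CD40L, was higher in replicates 1 and 2 (28.1 to 59.2 and 24.5 to 62.4 CPM) and not in replicate 3 (12.1 to 10.1 CPM). In the fit on replicates 1 and 2 its log2 fold change was 1.20 (edgeR adjusted p = 2.05e-06). The levels of Cd86, Ccr7 and 6 further genes in each library are plotted.

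**Figure D2:**
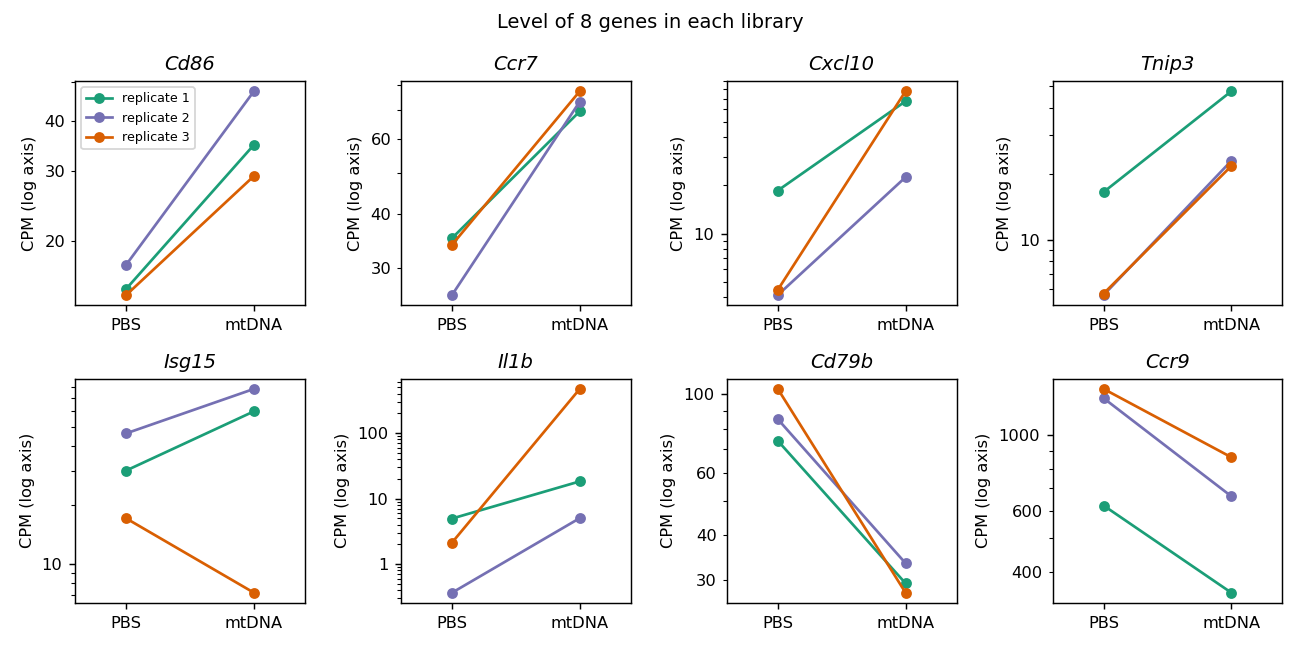
CPM of 8 genes on log axes in PBS and mtDNA, with a line joining the 2 libraries of each replicate. Cd86, Ccr7, Cxcl10 and Tnip3 were higher in each replicate and Cd79b and Ccr9 lower, while Isg15 was higher in replicates 1 and 2 and lower in replicate 3 and Il1b reached 473 CPM in replicate 3.

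Inflammatory cytokine and chemokine genes had mostly positive fold changes, with the largest differences in replicate 3. Of 30 tested members 27 had a positive fold change, 20 were higher in every replicate and none was lower in every replicate, and 9 were higher and 0 lower at an unadjusted p under 0.05. For all tested genes the shares were 22.3% and 17.7% in every replicate, and 5.46% and 2.8% at that p. Replicates 1 and 2 called 7.89% of all genes higher and 7.19% lower, and 0.979% were at least 2-fold higher in every replicate. The median log2 fold change of the list was 1, with replicate medians of 0.68, 0.94 and 2.02. Replicates 1 and 2 called 14 higher and 1 lower, Il12a, the other subunit of interleukin 12, named after its values were seen. The 7 members at least 2-fold higher in every replicate were Cxcl1, Cxcl2, Cxcl10, Ccl4, Il1b, Il6 and Il12b, of which Cxcl2 was named after its values were seen.

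Cxcl10, an interferon-induced chemokine that attracts T cells through CXCR3 (chromosome 5, 92494497 to 92496748, GRCm39), was at 18.6, 4.12 and 4.44 CPM in PBS and 67.4, 22.5 and 77.9 CPM after mtDNA. Each mtDNA library exceeded each PBS library, and the log2 fold change was 2.79 (SE 0.50, unadjusted p = 0.00294, edgeR adjusted p = 0.593). Il1b, the precursor of interleukin 1 beta, was at 4.95, 0.365 and 2.12 CPM in PBS and 18.3, 5.02 and 473 CPM after mtDNA. Its lowest mtDNA library lay just above its highest PBS library, and its differences of 1.86, 3.46 and 7.73 spread widely. Il12b, a subunit of interleukins 12 and 23 that promote T cell responses, was at 0.841, 0.677 and 0.348 CPM in PBS and 2.53, 2.40 and 17.3 CPM after mtDNA. Tnf was at 10.7, 6.56 and 2.86 CPM in PBS and 21.4, 12.1 and 96.1 CPM after mtDNA, again without overlap. Il6 was low in replicates 1 and 2, at no more than 0.861 CPM, and went from 0.618 to 6.75 CPM in replicate 3.

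The CC chemokine genes did not move alike. Ccl4 was at 2.08 to 3.04 CPM in PBS and 6.51, 6.19 and 972 CPM after mtDNA, with a log2 fold change of 3.15 whose SE of 1.88 reflects the gap between replicates. Ccl3 was at 6.49, 7.35 and 8.46 CPM in PBS and 8.83, 7.37 and 609 CPM after mtDNA, so nearly all of its difference came from replicate 3. Exons of Ccl3 overlap those of an antisense gene, and without strand the reads of both cannot be told apart. Ccl5 was higher in replicates 1 and 2, from 25 to 57.6 and from 28.3 to 86.3 CPM, and lower in replicate 3, from 15.7 to 8.33 CPM.

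NF-kB subunits and feedback targets, a list of NF-kB subunits, inhibitors that limit NF-kB and other target genes, had mostly positive fold changes. Of 34 tested members 30 had a positive fold change, 27 were higher and 2 lower in every replicate, and 14 were higher and 0 lower at an unadjusted p under 0.05. The shares of all tested genes were 22.3% and 17.7% in every replicate, and 5.46% and 2.8% at that p. Their median log2 fold change in the NF-kB list was 0.68, with replicate medians of 0.45, 0.40 and 1.27. Replicates 1 and 2 called 24 of the list higher and 0 lower, against 7.89% and 7.19% of all genes. Some members also stand in the lists of costimulation and of immediate-early genes, so the lists are not independent. Tnip3, an inhibitor that acts with the deubiquitinase A20, was at 16.5, 5.63 and 5.72 CPM in PBS and 47.5, 22.9 and 21.7 CPM after mtDNA. It did not overlap between groups, with replicate differences of 1.52, 2.01 and 1.91. Traf1, an adaptor of TNF family receptors, was at 17.9, 12.6 and 5.83 CPM in PBS and 41.4, 40.01 and 59.4 CPM after mtDNA (log2 fold change 2.05, SE 0.47). Tnfaip3, which encodes A20, went from 91.7, 82.0 and 67.4 CPM in PBS to 148, 110 and 1197 CPM, and Nfkbia, which encodes the inhibitor IkB alpha, from 108, 90.2 and 86.3 CPM to 145, 112 and 514 CPM. For both genes replicates 1 and 2 differed by less than 2-fold and replicate 3 by far more. Nfkbie, another IkB protein, differed by 0.49, 0.52 and 1.0 on the log2 scale.

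The promoters of Cxcl10 and Nfkbia, genes whose groups did not overlap, are shown because their windows hold a match to an NF-kB or interferon response motif. The window of Il12b, whose groups did not overlap either, was searched in the same way, held no match and is not shown. Both windows run from 250 bases before to 50 after the start of the gene (RefSeq, GRCm38.p6), at chr5:92348840-92349139 and chr12:55492598-55492897, both on the minus strand and read 5′ to 3′ along the gene. Capitals mark matches on either strand to the NF-kB consensus motif or to the interferon response motif GAAANNGAAA.
Cxcl10: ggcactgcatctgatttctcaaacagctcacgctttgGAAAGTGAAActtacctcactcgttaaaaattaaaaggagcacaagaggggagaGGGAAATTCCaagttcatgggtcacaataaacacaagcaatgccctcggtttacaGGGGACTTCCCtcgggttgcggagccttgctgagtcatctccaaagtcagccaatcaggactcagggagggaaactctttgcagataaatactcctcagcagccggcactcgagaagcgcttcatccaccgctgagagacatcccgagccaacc
Nfkbia: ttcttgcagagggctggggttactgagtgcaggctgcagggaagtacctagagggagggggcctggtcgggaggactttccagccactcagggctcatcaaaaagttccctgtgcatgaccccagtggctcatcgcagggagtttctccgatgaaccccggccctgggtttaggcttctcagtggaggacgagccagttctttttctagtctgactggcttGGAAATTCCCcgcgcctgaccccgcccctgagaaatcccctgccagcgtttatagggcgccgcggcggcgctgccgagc
In the Cxcl10 promoter the first capitals are the match to the interferon response motif, and the other stretches hold 4 NF-kB matches. The earlier of these stretches is 1 match. Those in the later stretch overlap each other, by a shift of 1 base or by reading of the other strand. The Nfkbia window holds 1 NF-kB match and no interferon response match. An NF-kB match was present in 8.46% of the 32851 RefSeq promoters of this length, in 10.1% of those of tested genes and in 17.7% of the 124 promoters of genes at least 2-fold higher in every replicate. Promoters of the NF-kB list held one in 16 of 37 cases, those of the cytokine list in 10 of 28 and those of costimulation genes in 3 of 26. An interferon response match was present in 3.44% of all promoters, 4.84% of those of the genes at least 2-fold higher and 31 of 63 of the interferon-stimulated genes. A match is a stretch of letters and not evidence of a bound factor.

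Immediate-early genes, transcription factors and phosphatases that are switched on within minutes of a stimulus, had mostly positive fold changes, of very unequal size between replicates. Of 41 tested members 37 had a positive fold change, 28 were higher and 1 lower in every replicate, and 6 were higher and 0 lower at an unadjusted p under 0.05. The replicate medians were 0.38, 0.37 and 2.97. Replicates 1 and 2 called 19 higher and 4 lower, the latter being Klf2, Klf4, Btg2 and Egr3, transcriptional regulators listed here after their values were seen. Fosl2, an AP-1 subunit, was at 3.46, 1.93 and 1.08 CPM in PBS and 10.9, 9.21 and 5.35 CPM after mtDNA, with no overlap and differences of 1.62, 2.20 and 2.21. Nr4a3, an orphan nuclear receptor, went from 15.4, 16 and 0.232 CPM in PBS to 44.4, 64.4 and 11.6 CPM. Dusp5, a phosphatase of ERK, went from 117, 67.9 and 6.29 CPM to 209, 183 and 15.4 CPM, higher in each pair although its level in replicate 3 was low in both groups. Fos, Atf3 and Nr4a1, named after their values were seen, were with Fosl2 and Nr4a3 the 5 members at least 2-fold higher in every replicate. Fos was at 8.27, 4.43 and 1.0 CPM in PBS and 17.8, 9.82 and 242 CPM after mtDNA.

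**Figure D3:**
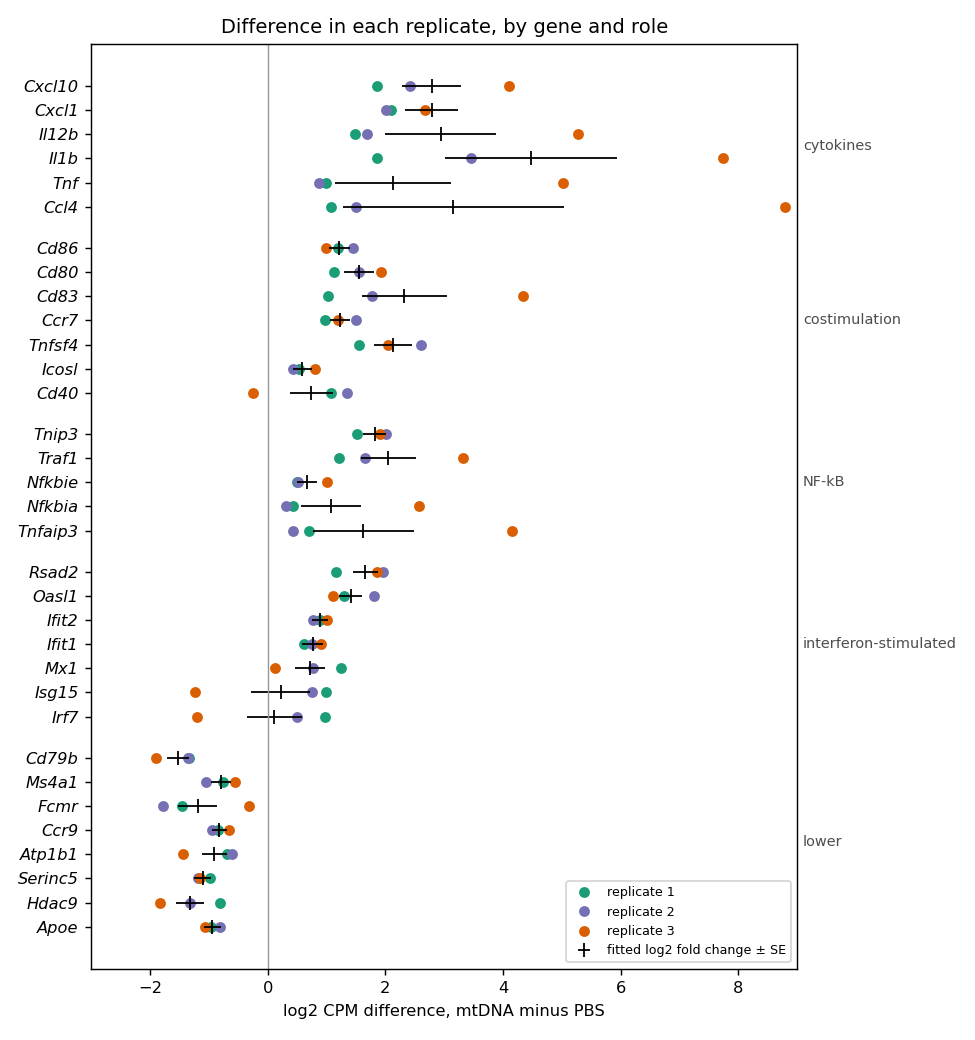
Log2 CPM difference between mtDNA and PBS in each replicate (coloured points) and fitted log2 fold change ± SE (black), for 33 genes grouped by role. Cytokine, NF-kB and most costimulation genes lay above 0 in each replicate, with replicate 3 the highest for Cxcl10, Il1b, Tnf and Ccl4, and Cd40, Isg15 and Irf7 were below 0 in replicate 3 only.

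Interferon genes themselves were near 0 except in 1 library. All 21 type I and III interferon genes in the table were too low to be tested. Their summed level was 0.327 to 0.677 CPM in 5 libraries and 61.9 CPM in mtDNA replicate 3. Ifnb1, interferon beta, had 1, 0 and 0 counts in PBS and 6, 0 and 900 counts after mtDNA, which is 54.7 CPM in the last library and at least 473-fold higher than PBS replicate 3, taking a floor of 3 counts in that library. Ifna2 had 45 counts and Ifna4 5 counts in mtDNA replicate 3 and 0 in the other 5 libraries. Interferon alpha genes are near-identical copies, and multi-mapping fragments were left out of the counts, which makes their counts uncertain.

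Interferon-stimulated genes behaved differently in replicate 3 from replicates 1 and 2. In replicates 1 and 2 alone, 54 of 68 tested members were called higher and 0 lower (edgeR adjusted p under 0.05), against 7.89% and 7.19% of all genes. Their median difference was 0.71 and 0.74 in replicates 1 and 2 and -0.91 in replicate 3. Across all 3 replicates 46 of 68 had a positive fold change, and the median log2 fold change was 0.27. In every replicate 13 were higher and 0 lower, where 22.3% of all genes were higher and 17.7% lower. This difference between replicates has no replicate check of its own, since replicate 3 is a single pair of libraries.

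Isg15, a ubiquitin-like protein (chromosome 4, 156283912 to 156285253, GRCm39), was at 30.0, 46.4 and 17.1 CPM in PBS and 60.1, 78.1 and 7.18 CPM after mtDNA. It was higher in replicates 1 and 2 and lower in replicate 3, with a log2 fold change of 0.22 (SE 0.49, edgeR adjusted p = 0.868). Irf7 followed the same pattern, from 156 to 306 and from 313 to 443 CPM in replicates 1 and 2, and from 82.2 to 35.7 CPM in replicate 3. Oas3, an antiviral enzyme that makes oligoadenylates, had differences of 1.70, 1.75 and -1.16, and Ifi44 1.13, 0.75 and -2.35, both named after their values were seen. A smaller number of members was higher throughout. Rsad2, which encodes the antiviral protein viperin, was at 51.4, 35.1 and 20.8 CPM in PBS and 115, 136 and 76.0 CPM after mtDNA, with no overlap between groups (log2 fold change 1.66, SE 0.21). Ifit2, an RNA-binding antiviral protein, was at 51.0, 52.5 and 33.5 CPM in PBS and 94.7, 89.5 and 67.1 CPM after mtDNA, also without overlap. Oasl1 differed by 1.29, 1.81 and 1.10, and Ifit1 by 0.62, 0.75 and 0.90. Mx1, a GTPase that blocks viruses, differed by 1.25 and 0.76 in replicates 1 and 2 and by 0.13 in replicate 3.

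Genes of the sensing machinery showed no common direction. Of 26 tested genes of the TLR9 pathway 14 had a positive fold change, 7 were higher and 6 lower in every replicate, 4 were higher and 1 lower at an unadjusted p under 0.05, and the median was 0.06. In replicates 1 and 2 alone, 5 were called higher and 5 lower. Of all genes, 22.3% were higher and 17.7% lower in every replicate, and 5.46% higher and 2.8% lower at that p. Replicates 1 and 2 called 7.89% of all genes higher and 7.19% lower. Tlr9 itself was at 257, 288 and 11.8 CPM in PBS and 339, 401 and 28.0 CPM after mtDNA. It was higher in each pair, by 0.40, 0.48 and 1.24 on the log2 scale, while its level in replicate 3 was far below that in replicates 1 and 2 in both groups. Pld3, an endosomal exonuclease that degrades TLR9 ligands, was at 34.0, 36.4 and 4.29 CPM in PBS and 50.7, 53 and 18.3 CPM after mtDNA. Lgmn, a protease that can cut TLR9, was higher by 0.28, 0.51 and 0.82, and Ctsl, another such protease, lower by -0.40, -0.28 and -0.99. Unc93b1, which carries TLR9 to endosomes, was at 914, 1123 and 207 CPM in PBS and 994, 1236 and 375 CPM after mtDNA. Myd88 differed by 0.18, -0.07 and -1.26.

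Among 18 tested genes of cytosolic DNA sensing 9 had a positive fold change. In every replicate 1 was higher, Cgas, and 1 lower, Sting1, smaller shares than the 22.3% and 17.7% of all tested genes. Cgas, the cytosolic DNA sensor, was at 18.3, 15.4 and 4.48 CPM in PBS and 27.6, 25.6 and 30.8 CPM after mtDNA, with all mtDNA libraries above all PBS libraries (log2 fold change 1.33, SE 0.50). Sting1, its downstream adaptor, was at 197, 185 and 386 CPM in PBS and 156, 166 and 167 CPM after mtDNA, the reverse order without overlap. Replicates 1 and 2 called 7 members higher and 1 lower, Ddx41, a helicase named after its values were seen. They called 7.89% of all genes higher and 7.19% lower. The list's replicate medians were 0.35, 0.20 and -0.51. Zbp1, a sensor of Z-form nucleic acid that is itself induced by interferon, differed by 1.15, 1.91 and -0.68.

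The genes with the smallest p, or with the largest value of the replicate difference nearest 0, were chosen on these values, so their sizes are a description. Grhl2, an epithelial transcription factor, ranked first. It had 0, 0 and 0.270 CPM in PBS and 1.18, 2.18 and 36.3 CPM after mtDNA (edgeR adjusted p = 0.469). Among genes with a higher level, P2rx7, the ATP-gated channel that can trigger release of interleukin 1 beta, was at 8.36, 9.12 and 14.7 CPM in PBS and 50.1, 138 and 95.1 CPM after mtDNA, with no overlap and a fitted log2 difference of 3.06 (SE 0.33). Gbp10, an interferon-inducible GTPase, was at 3.46, 6.88 and 2.51 CPM in PBS and 17.5, 36.3 and 21.4 CPM after mtDNA, and its exons overlap those of Gm43302 on the same strand, so the 2 counts share reads. Gng4, a G protein subunit, was higher by 3.18, 4.48 and 3.11 and Adgrg5, an adhesion G protein-coupled receptor, by 1.92, 2.48 and 2.24. In replicate 3 Gng4 had only 3 counts in PBS and 29 after mtDNA. Mreg, a protein of organelle transport, was at 8.27, 11.8 and 4.13 CPM in PBS and 24, 32.9 and 15.1 CPM after mtDNA. Hspb1, a small heat shock protein, was at 0.981, 2.45 and 0.348 CPM in PBS and 11.5, 19.5 and 23.7 CPM after mtDNA, and Fn1, fibronectin, differed by 2.27, 4.0 and 3.78. In replicate 3 Fn1 had only 4 counts in PBS and 56 after mtDNA. Slc16a6, a monocarboxylate transporter, was at 14.3, 14 and 6.06 CPM in PBS and 56.8, 66.2 and 243 CPM after mtDNA, and its exons overlap those of Amz2 on the opposite strand.

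Genes lower in every replicate had smaller differences. Cd79b, which transmits signals from surface immunoglobulin (chromosome 11, 106202167 to 106205588, GRCm39), was at 73.9, 85.1 and 104 CPM in PBS and 29.3, 33.4 and 27.6 CPM after mtDNA. Its groups did not overlap, with a log2 fold change of -1.53 (SE 0.18, edgeR adjusted p = 0.593). Serinc5, a membrane protein that restricts retroviruses, was at 112, 144 and 271 CPM in PBS and 56.5, 63.4 and 122 CPM after mtDNA, close to 2-fold lower within each pair. Hdac9, a histone deacetylase, was at 48.9, 64.8 and 144 CPM in PBS and 27.9, 25.7 and 40.3 CPM after mtDNA, without overlap. Apoe, a lipid carrier, differed by -0.96, -0.81 and -1.07, and Kif21b, a kinesin, by -0.94, -1.18 and -0.97. Kif21b was at 110.5, 118.2 and 2.01 CPM in PBS and 57.4, 52.2 and 0.973 CPM after mtDNA. Its difference in replicate 3 thus rests on 52 counts in PBS and 16 after mtDNA. Pcyox1, an enzyme that degrades prenylated cysteine, was at 63.0, 64.8 and 112 CPM in PBS and 35.5, 33.3 and 44.5 CPM after mtDNA.

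B cell markers had mostly negative fold changes, a list which in sorted pDCs can hold both other cells and genes that pDCs share with B cells. Of 21 tested members 20 had a negative fold change, 9 were lower and 0 higher in every replicate, 5 were lower at an unadjusted p under 0.05, and the median was -0.42 with replicate medians of -0.48, -0.93 and -0.25. The summed level went from 4140 to 3100 CPM in replicate 1, from 3940 to 3090 in replicate 2 and from 4850 to 4620 in replicate 3. Most of each sum was Ighm (1523 to 3161 CPM) and Igkc (480.8 to 1007 CPM), both named after their values were seen. Ms4a1, which encodes CD20, was at 51.3, 49.9 and 48.0 CPM in PBS and 30.4, 23.9 and 32.5 CPM after mtDNA. Cd79a, the partner of Cd79b, was at 81.3, 78.7 and 64.8 CPM in PBS and 42.2, 33.8 and 54.4 CPM after mtDNA, and Fcmr, the receptor of immunoglobulin M, differed by -1.46, -1.78 and -0.32. None of the list was at 0 in all libraries, and replicates 1 and 2 called 14 lower and 0 higher, against 7.19% and 7.89% of all genes. Among all tested genes, 17.7% were lower and 22.3% higher in every replicate, and 2.8% were lower at an unadjusted p under 0.05. In bulk samples fewer cells of a type and less RNA per cell cannot be told apart, and the part of a change in cell makeup in the other results was not tested.

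Genes of pDC identity had a median log2 fold change of -0.08, with replicate medians of -0.18, -0.19 and -0.20, and some members were lower throughout. Of 28 tested members 16 had a negative and 12 a positive fold change, and 12 were lower and 2 higher in every replicate. At an unadjusted p under 0.05, 7 were lower and 0 higher. Among all tested genes, 17.7% were lower and 22.3% higher in every replicate, and 2.8% lower and 5.46% higher at that p. The fit on replicates 1 and 2 called 10 lower and 2 higher, Irf7 among the latter, against 7.19% and 7.89% of all genes. Ccr9, a chemokine receptor of pDCs that guides them to the gut and thymus, was at 624, 1285 and 1368 CPM in PBS and 347, 664 and 864 CPM after mtDNA. It was lower in each pair, by -0.85, -0.95 and -0.66, while the groups overlapped because replicate 1 was low in PBS. Exons of Ccr9 overlap those of Gm17200 on the same strand. Atp1b1, a subunit of the sodium pump that pDCs express highly, was at 489, 488 and 324 CPM in PBS and 302, 320 and 120 CPM after mtDNA, without overlap. Lair1, an inhibitory collagen receptor, differed by -0.41, -0.30 and -0.46, and Tcf4, the transcription factor that defines pDCs, by -0.18, -0.20 and -0.66. Siglech had a log2 fold change of -0.09 (SE 0.13).

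Cholesterol synthesis genes had negative median differences in replicates 1 and 2. None of 24 tested members was higher in every replicate and 10 were lower in every replicate, 6 were lower and 0 higher at an unadjusted p under 0.05, and replicates 1 and 2 called 13 lower and 0 higher. All tested genes were higher in every replicate in 22.3% of cases and lower in 17.7%. At that p, 2.8% of all genes were lower and 5.46% higher, and replicates 1 and 2 called 7.19% lower and 7.89% higher. Replicate medians of the list were -0.20, -0.46 and 0.20. Acat2, an acetyl-CoA acetyltransferase at the start of the pathway, was at 57.8, 138 and 134 CPM in PBS and 34.3, 43.1 and 37.4 CPM after mtDNA. Mvk, mevalonate kinase, differed by -0.56, -0.58 and -0.54, the most even of the 4 described here, and Lss, lanosterol synthase, by -0.54, -1.19 and -1.30. Stard4, a carrier of cholesterol between membranes, was at 95.9, 152 and 161 CPM in PBS and 65.9, 90.1 and 123 CPM after mtDNA.

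Genes of antigen presentation had medians near that of all genes, and more class I than class II genes were called higher in replicates 1 and 2, a difference between the classes that was not tested. The 16 tested MHC class II genes had a median of 0.03, with 0 higher and 1 lower at an unadjusted p under 0.05, and replicates 1 and 2 called 0 higher and 2 lower. The 24 MHC class I genes had a median of 0.01, with 4 higher and 0 lower at an unadjusted p under 0.05. Their replicate medians were 0.21, 0.21 and -0.17, and replicates 1 and 2 called 10 of them higher and 0 lower, against 7.89% and 7.19% of all genes. Tap1, which transports peptides to MHC class I, was at 311, 315 and 10.1 CPM in PBS and 457, 499 and 17.4 CPM after mtDNA, higher in each pair. Its exons overlap those of Psmb9 on the opposite strand. The 14 tested genes of the mitochondrial genome had a median of -0.12, with 0 higher and 0 lower at an unadjusted p under 0.05 and 4 lower in every replicate. For all tested genes, 5.46% were higher and 2.8% lower at that p, and 17.7% were lower in every replicate.

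Markers of other cell types were present at lower sums than the pDC list, which held 12300 to 16500 CPM in PBS and 10800 to 14300 CPM after mtDNA. Of these lists only the erythroid one had markers at 0 in all 6 libraries, 2 of 9. The background for the counts that follow is 5.46% of all tested genes higher and 2.8% lower at an unadjusted p under 0.05. The summed levels of conventional dendritic cell markers of type 1 were 1610 to 1930 CPM in PBS and 1580 to 1800 CPM after mtDNA, with 0 of 14 higher and 2 lower at an unadjusted p under 0.05. Those of type 2 were 465 to 530 and 384 to 449 CPM, with 0 of 11 higher and 1 lower. Monocyte and macrophage markers were at 1070 to 2180 CPM in PBS and 940 to 1410 CPM after mtDNA, with 1 of 14 higher and 3 lower, among them Ccr2, a chemokine receptor that pDCs also carry, which differed by -0.47, -0.47 and -1.13. Neutrophil markers summed to at most 27.4 CPM, with 0 of 7 higher and 2 lower. T cell markers summed to 185 to 425 CPM over the 6 libraries, with 1 of 10 higher and 0 lower, and natural killer cell markers to 118 to 260 CPM, with 2 of 6 higher and 0 lower. Most of the T cell sum was Cd28, at 126.9 to 358.2 CPM and named after its values were seen, while Cd3d, Cd3e and Cd3g were too low to be tested. No erythroid marker was high enough to be tested, and their sum was at most 0.861 CPM. The plot of list medians shows these lists beside the ones described above.

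**Figure D4:**
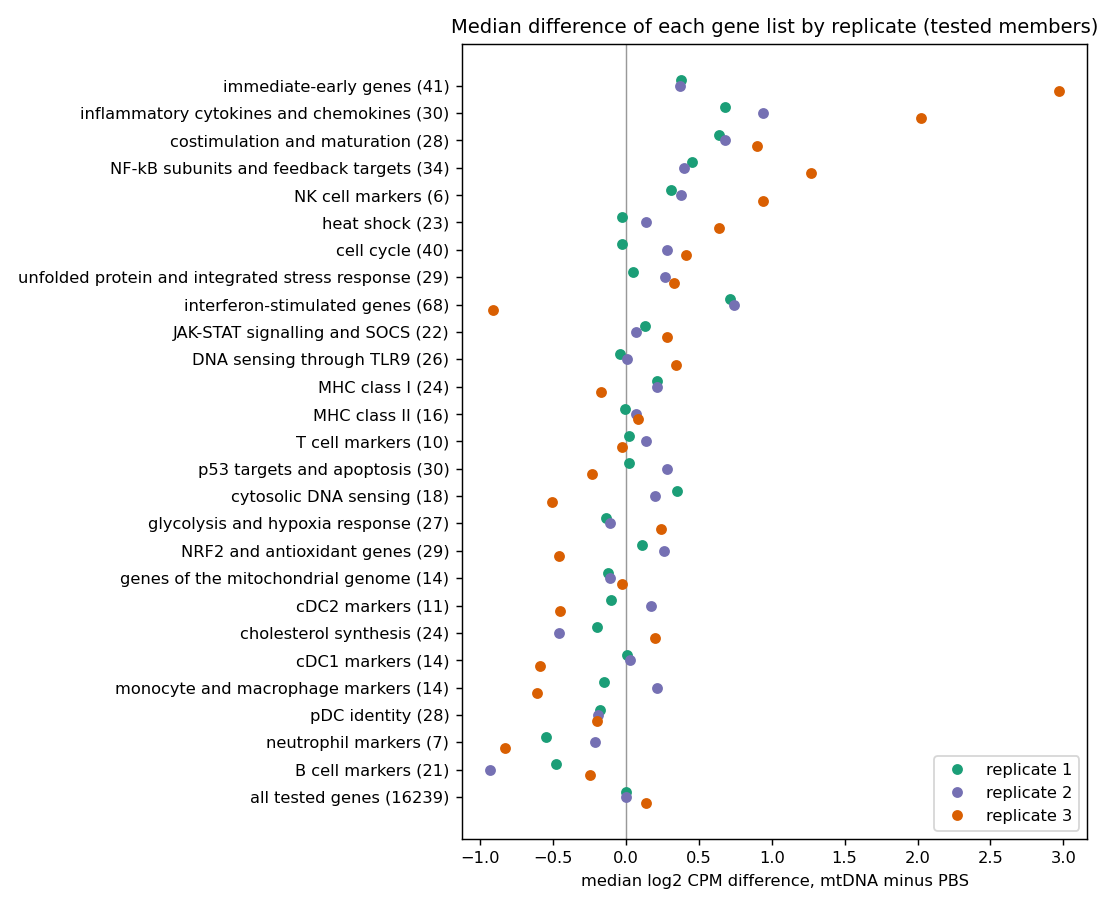
Median log2 CPM difference between mtDNA and PBS over the tested members of each gene list, with the number of members in brackets and 1 point per replicate. Immediate-early genes, cytokines, costimulation and NF-kB lists lay above 0 in each replicate, interferon-stimulated genes at 0.71, 0.74 and -0.91, and B cell markers below 0 in each replicate.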

How the data were processed

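The authors deposited raw counts per gene, with no normalization. The submitters' processing notes name fastp 0.23.4, STAR 2.7.11b, featureCounts 2.0.1 and the build GRCm39. Per the file headers, fragments were counted over exons without strand and for every gene they overlapped, and multi-mapping fragments were left out. Gene lengths in the deposited table were not used. Groups come from the sample titles.

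Genes were kept with filterByExpr (minimum count 10) and tested by quasi-likelihood (robust) in edgeR 4.0.16, R 4.3.3, on the 6 libraries, with TMM factors and the replicate number as a block (2 residual degrees of freedom) and Benjamini-Hochberg adjustment over all tested genes. CPM use the same factors, and replicate differences are log2 CPM with a prior count of 2. "At least 2-fold" means a difference of at least 1 in every replicate. The scripts were tested on simulated data. The numbers pair the samples: deviations from the group means correlated at 0.805, 0.805 and 0.853 between libraries of the same number, each sample best with its own, and replicate 1 minus 2 correlated at 0.392 between the groups.

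The comparison and its 28 gene lists were chosen with earlier results of these data known. Genes were named as the 10 with the smallest p, the 12 protein-coding genes in each direction (mean of at least 5 CPM) with the largest smallest difference over replicates, a panel of response genes and, from each list, at most 4 members ranked by p. The NF-kB motif was tightened after a looser form was seen to match too many promoters. Of 86 named genes recomputed under the alternatives, which used limma 3.58.1 and DESeq2 1.42.0, 20 have exons overlapping another gene, among them Cgas, Ctsl, Dusp5, Atp1b1, Fn1, Grhl2, P2rx7, Lss and Cdkn1a beside those the text points out, and their counts are uncertain to that extent. Of 687 listed symbols 684 were matched.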

Additional observations from a re-analysis of the deposited data

How the results depend on the processing

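With 3 replicates and edgeR or limma-voom, the counts of genes past an adjusted p of 0.05 stayed at 0 in both directions under DESeq2 size factors, upper quartile normalization, limma-voom, a filter of 1 CPM in 3 libraries and all 9 libraries with the block. Without the replicate block the count was also 0, with 365 genes higher and 82 lower at an unadjusted p under 0.05. Without a filter 6 genes were higher, and DESeq2 called 135 higher and 22 lower. Of the 86 named genes, 4 passed an adjusted p of 0.05 in edgeR without a filter and 43 in DESeq2. Leaving out 1 replicate gave 0 to 1294 genes higher and 0 to 1180 lower, and the highest counts came without replicate 3. From replicates 1 and 2 alone DESeq2 called 493 higher and 337 lower, and the fit with no replicate block 1 and 0, settings added after the data were seen. Genes at least 2-fold higher in every replicate numbered 159, 303 without a filter and 258 to 348 with 1 replicate left out. Genes at least 2-fold lower numbered 10, 18 at a prior count of 0.5, 25 without a filter and 58 to 81 with 1 replicate left out, where fewer replicates have to meet the rule. All 86 named genes kept 1 direction in every setting with 3 replicates, and 84 in all settings. Isg15 ran from -0.34 (without replicate 1) over -0.23 (without 2) to 0.87 (without 3), and Irf7 from -0.46 over -0.23 to 0.73, and the cause was not tested. The chi-square per degree of freedom was 17.1 to 22.9 between replicates 1 and 2 of a group. It was 358 to 404 between replicate 3 and either. Counting error alone gives about 1, so replicates of a group differed by more than counting error. These values include the replicate differences that the block takes out, so they do not give the precision of the blocked comparison.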

Other observations

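Some genes of stress responses were higher after mtDNA in each replicate. Of 29 tested genes of the unfolded protein and integrated stress response 20 had a positive fold change, where 9067 of all 16239 tested genes did, 14 were higher and 3 lower in every replicate, and the median was 0.22. Replicates 1 and 2 called 6 higher and 3 lower, where they called 7.89% of all genes higher and 7.19% lower. In every replicate, 22.3% of all genes were higher and 17.7% lower. Herpud1, which helps to clear misfolded proteins from the endoplasmic reticulum, was at 282, 315 and 315 CPM in PBS and 358, 500 and 559 CPM after mtDNA, without overlap. Chac1 and Trib3, targets of the transcription factor ATF4, differed by 0.99, 3.15 and 3.96 and by 0.93, 2.86 and 1.30. Both had few counts in replicate 3, Chac1 1 in PBS and 34 after mtDNA, and Trib3 1 and 4. Of 23 heat shock genes 17 had a positive fold change, 11 were higher and 4 lower in every replicate, and the replicate medians were -0.03, 0.14 and 0.64. Replicates 1 and 2 called 6 of them higher and 2 lower. Hsph1, a co-chaperone of HSP70, was at 102, 102 and 87.6 CPM in PBS and 140, 201 and 246 CPM after mtDNA. Hmox1, heme oxygenase 1, was at 193, 69.9 and 38.2 CPM in PBS and 301, 128 and 86.3 CPM after mtDNA. The 29 tested NRF2 and antioxidant genes had a median of 0.06, with replicate medians of 0.11, 0.26 and -0.46. At an unadjusted p under 0.05, 4 were higher and 0 lower, against 5.46% and 2.8% of all genes. Replicates 1 and 2 called 11 higher and 0 lower.

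Pmaip1, which encodes the cell death protein NOXA, was at 76.3, 69.9 and 105 CPM in PBS and 136, 147 and 1727 CPM after mtDNA, and Cdkn1a, the cell cycle inhibitor p21, differed by 0.58, 0.80 and 1.53. The 30 tested p53 target and apoptosis genes as a list had a median of -0.07, with replicate medians of 0.02, 0.28 and -0.23, and replicates 1 and 2 called 5 higher and 1 lower. Of 40 cell cycle genes 36 had a positive fold change, where 9067 of all 16239 tested genes did. Their replicate medians were -0.03, 0.28 and 0.41, and 1 was higher and 0 lower at an unadjusted p under 0.05. Tk1, thymidine kinase 1, was at 37.6 to 56.2 CPM in PBS and 57.6 to 68.6 CPM after mtDNA. Gzmb, granzyme B, was at 0.234, 0 and 0.193 CPM in PBS and 1.08, 1.12 and 2.68 CPM after mtDNA. The 22 tested JAK-STAT and SOCS genes had a median of 0.20, with 4 called higher and 0 lower in replicates 1 and 2. The 27 glycolysis and hypoxia genes had a median of -0.01, with 2 called higher and 5 lower there. Of all genes, replicates 1 and 2 called 7.89% higher and 7.19% lower, and 5.46% were higher and 2.8% lower at an unadjusted p under 0.05.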
